A study of Mus musculus with 10 samples.

Results

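Genes for matrix-cutting metalloproteases and their inhibitors were followed in embryonic mouse testis at 5 embryonic stages: E11.5 and E12.5, then E14.5, then E16.5, and last E18.5. They were chosen by name, with earlier results of these data known. The rule took every gene whose single annotated symbol begins with Mmp, Adam, Adamts or Adamtsl and a number, or is Timp and a digit. This gave 70 genes among 18193 genes named on the array, with 124 probe sets, and each gene was read from its probe set with the highest mean log2(signal + 16) over the 10 arrays. Total RNA had been hybridised to Affymetrix Mouse430_2 arrays, 2 a stage, which the design text describes as independent preparations of testis. The strain, any genotype, the number of embryos in a preparation and whether the mesonephros was attached could not be taken from the labels, and no treatment is named. Signals are linear array intensities, means are given ± SD with n = 2 arrays a stage, and log2 changes and folds were computed from log2(signal + 16), so those of dim genes come out too small. Signals of different probe sets are not set against each other.

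Matrix metalloproteinases (MMPs) are zinc enzymes that cut collagens, laminins and other matrix proteins, and some are anchored in the cell membrane. ADAMs are membrane proteins that release the outer part of growth factors, receptors and adhesion proteins from the cell surface, and several have lost the protease function and serve in adhesion or in sperm. ADAMTS proteases are secreted relatives that process procollagens and cut large proteoglycans such as versican and aggrecan, the ADAMTS-like proteins share their non-catalytic part, and the tissue inhibitors of metalloproteinases (TIMPs) bind the active site of these enzymes. In the fetal testis, the period spans the enclosure of germ and Sertoli cells in cords, the laying down of basement membrane and interstitial matrix, and the ingrowth of vessels.

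RefSeq promoters of assembly GRCm38.p6 could be matched to 41 of the 70 genes, and the 250 bases before the annotated start were searched on both strands for TATAAA (the core of a TATA box), TGANTCA (the core of an AP-1 site) and GGGCGG (a GC box). Matches of different motifs cannot share letters. The sequences shown are those of 2 genes of the chromosome 9 MMP cluster that were under the filter on low signal described below, Mmp3 (chr9:7445572-7445821, plus strand) and Mmp13 (chr9:7272264-7272513, plus strand), and of 3 genes that rose, Mmp14 (chr14:54431348-54431597, plus strand), Timp2 (chr11:118355412-118355661, minus strand) and Adamts1 (chr16:85803114-85803363, minus strand). Each runs 5′ to 3′ toward the start of its gene, and capitals mark the motif matches.
Mmp3: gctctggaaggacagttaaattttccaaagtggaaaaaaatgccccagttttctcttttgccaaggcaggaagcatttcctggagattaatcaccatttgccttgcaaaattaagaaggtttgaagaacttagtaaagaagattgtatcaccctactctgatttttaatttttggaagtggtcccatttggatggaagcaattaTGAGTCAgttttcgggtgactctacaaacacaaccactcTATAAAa
Mmp13: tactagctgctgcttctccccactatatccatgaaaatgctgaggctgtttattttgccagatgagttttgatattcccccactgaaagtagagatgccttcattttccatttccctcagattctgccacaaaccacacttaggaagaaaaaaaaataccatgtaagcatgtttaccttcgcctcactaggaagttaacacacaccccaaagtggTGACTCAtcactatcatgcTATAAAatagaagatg
Mmp14: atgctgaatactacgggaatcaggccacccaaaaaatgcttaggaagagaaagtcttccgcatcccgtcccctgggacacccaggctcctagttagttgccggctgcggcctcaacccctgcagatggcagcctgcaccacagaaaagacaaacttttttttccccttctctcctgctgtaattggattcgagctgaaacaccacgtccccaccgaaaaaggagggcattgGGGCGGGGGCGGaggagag
Timp2: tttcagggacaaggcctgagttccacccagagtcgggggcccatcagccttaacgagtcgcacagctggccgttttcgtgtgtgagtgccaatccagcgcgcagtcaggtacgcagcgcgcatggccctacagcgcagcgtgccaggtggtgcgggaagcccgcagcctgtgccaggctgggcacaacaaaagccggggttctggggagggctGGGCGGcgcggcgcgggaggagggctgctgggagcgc
Adamts1: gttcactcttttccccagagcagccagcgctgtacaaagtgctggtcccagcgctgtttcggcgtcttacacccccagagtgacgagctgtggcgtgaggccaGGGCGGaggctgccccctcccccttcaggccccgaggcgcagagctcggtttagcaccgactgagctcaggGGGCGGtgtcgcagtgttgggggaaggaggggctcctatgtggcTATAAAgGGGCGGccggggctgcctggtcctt
The Mmp3 and Mmp13 sequences each held a TGANTCA match before a TATAAA match, with the first base of the TGANTCA match 46 and 35 bases before the start. The Mmp14 sequence held 2 adjoining GGGCGG matches, the Timp2 sequence 1, and the Adamts1 sequence 3 along with a TATAAA match. Both TATAAA and TGANTCA were found in 7 of the 41 genes (Mmp1a, Mmp1b, Mmp3, Mmp7, Mmp10, Mmp13 and Mmp20). They were found in 179 of the 14453 array genes with a promoter and, counted by promoter, in 1.21% of all 32851.

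To limit tests to genes with a readable signal, genes whose mean log2 value lay under the 40th percentile (a signal of 49.1) were left out. This filter kept 29 of the 70 genes and left 41 untested, and 40 of these 41 stayed under a signal of 100 on every array. Of the 29 tested genes, 18 changed over the 5 stages (moderated F test in limma with Benjamini-Hochberg adjustment over 10916 tested genes), where 34.7% of all tested genes were called. Among the 18, the stage with the highest mean log2 value was E16.5 for 8 genes and E18.5 for 7, and E11.5, E12.5 and E14.5 had 1 gene each. The same split over all changed genes was not computed. By family, 7 of 9 tested ADAMTS proteases changed, 5 of 11 tested ADAMs, 3 of 5 tested MMPs, 2 of 3 tested TIMPs and the 1 tested ADAMTS-like gene.

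**Figure D1:**
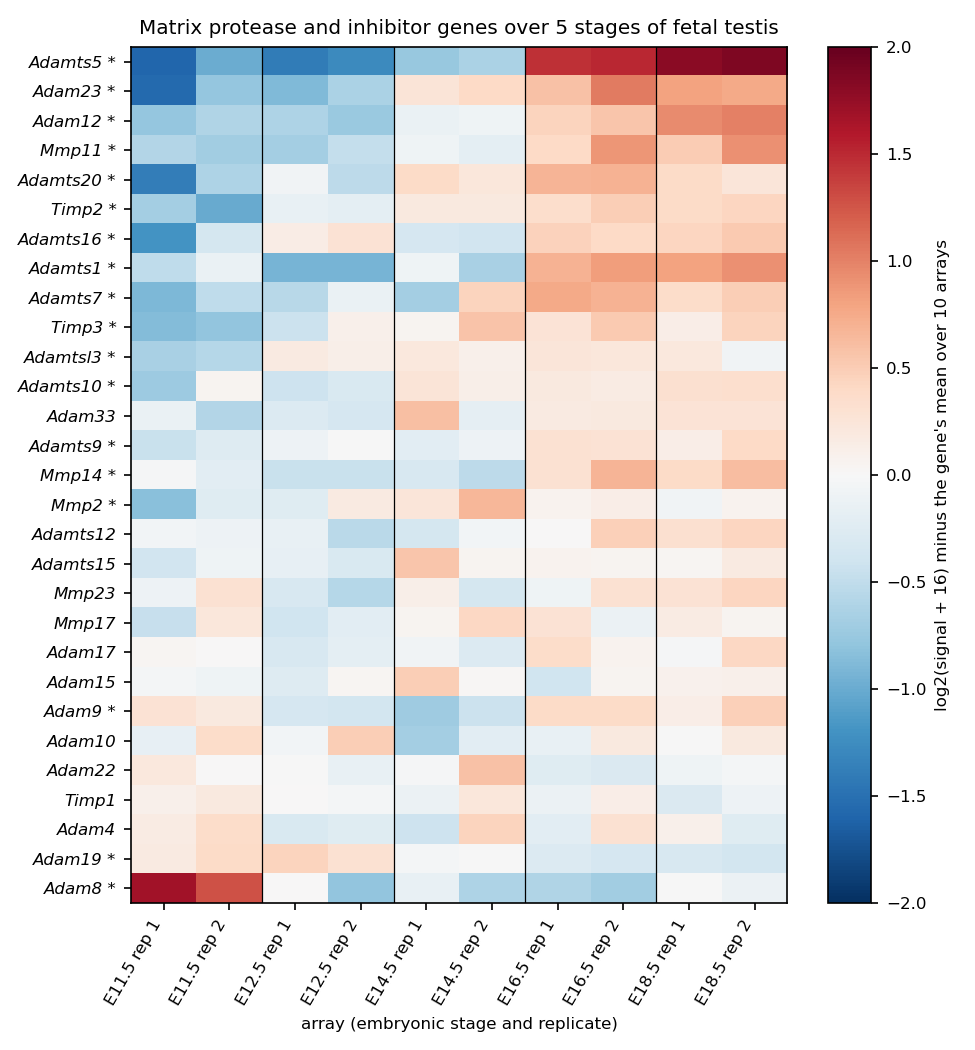
Each row is 1 of the 29 tested genes and each column 1 of the 10 arrays, by stage and replicate. Colour is log2(signal + 16) minus the gene's own mean over the arrays (log2 units), rows are ordered by the change in E18.5 against E11.5, and an asterisk marks the 18 genes called in the F test; most of the upper rows are above their mean (red) on the E16.5 and E18.5 arrays, and Adam8 in the bottom row is above its mean at E11.5.

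The 2 arrays within each stage had r of 0.963 to 0.980 over the tested genes, and median signals were 35.2 to 57.7, with the highest on E14.5 replicate 1. Scanning day and fluidics module followed the stages. The arrays of E14.5 were scanned on a day of their own, while E12.5 shared its day with E16.5 and E11.5 its day with E18.5, and the modules used for E16.5 and E18.5 differed from those of the earlier stages. E16.5 against E12.5 and E18.5 against E11.5 are therefore comparisons within a scanning day, stage and module cannot be told apart in them, and stage, day and module cannot be told apart in E16.5 against E14.5. The ratio of 3′ to 5′ signal of beta-actin, a sign of RNA quality, was 1.84 and 1.57 (E11.5), 1.93 and 2.03 (E12.5), 1.64 and 2.5 (E14.5), 2.61 and 2.6 (E16.5), 1.87 and 2.62 (E18.5), so both E16.5 arrays lay above both E12.5 arrays and both E18.5 arrays above both E11.5 arrays. The part of RNA quality in the results below was not tested. The tissue label was checked with marker genes. All 9 tested Sertoli cell markers and all 4 tested fetal Leydig cell markers changed. In E18.5 against E11.5, 8 of the 9 and all 4 rose. Amh, the Sertoli cell hormone, averaged 364 ± 201 at E18.5 and 4.75 ± 0.0707 at E11.5. Sox9 did not rise, with means of 199 at E11.5, 76.8 at E14.5 and 134 at E18.5. Gata1 was under the filter described above, and Insl3 and Lhcgr had no probe set of their own.

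Most tested proteases that cut hyalectans, the large hyaluronan-binding proteoglycans, rose. Of 7 such ADAMTS genes, 5 were tested, and 4 of them (Adamts5, Adamts1, Adamts20 and Adamts9) changed over the stages and rose in E18.5 against E11.5. Adamts5, the main aggrecan-cutting enzyme of mouse cartilage, had signals of 68.7 and 112.2 (E11.5), 80.2 and 89.1 (E12.5), 134.1 and 147.0 (E14.5), 684.5 and 705.4 (E16.5), 873.9 and 911.5 (E18.5). Its 4 arrays of E16.5 and E18.5 all lay above all 6 earlier arrays. Adamts5 was 4.54-fold higher in E16.5 against E14.5 (log2 change 2.18 ± 0.19 SE, adjusted p = 2.42e-05), 7.07-fold higher in E16.5 against E12.5 and 8.72-fold higher in E18.5 against E11.5 (adjusted p = 5.44e-08). The 3 other Adamts5 probe sets also had higher means in E16.5 than in E14.5, with log2 changes of 0.88 to 2.44.

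Adamts1, which cuts versican and aggrecan, had 182.9 and 241.3 (E11.5), 132.4 and 133.7 (E12.5), 250.1 and 164.7 (E14.5), 445.7 and 489.5 (E16.5), 479.3 and 517.2 (E18.5). The E12.5 arrays were the lowest, and the arrays of the last 2 stages lay above all others. Adamts1 was 3.24-fold higher in E16.5 against E12.5 (adjusted p = 4.64e-05), 2.20-fold higher in E16.5 against E14.5 (adjusted p = 0.00386) and 2.27-fold higher in E18.5 against E11.5 (adjusted p = 0.000609). Adamts20, a versican protease whose loss causes the white belt of the belted mouse, had 33.1 and 67.6 (E11.5), 105.8 and 73.5 (E12.5), 150.9 and 133.9 (E14.5), 188.4 and 190.5 (E16.5), 150.7 and 135.4 (E18.5). Its mean was highest at E16.5, and it was 2.48-fold higher in E18.5 against E11.5 (adjusted p = 0.00111) and 1.97-fold higher in E16.5 against E12.5 (adjusted p = 0.00885). Adamts9, another versican protease, had 280.3 and 323.6 (E11.5), 359.9 and 386.1 (E12.5), 333.1 and 360.9 (E14.5), 483.8 and 478.3 (E16.5), 426.7 and 519.6 (E18.5). It was 1.54-fold higher in E18.5 against E11.5 (adjusted p = 0.0133). The 2 other Adamts9 probe sets had log2 changes of 1.41 and 0.25 in this comparison. In E16.5 against E14.5 they had -0.01 and -0.59, where the chosen probe set had 0.45. With the mean of probe sets the F test call of Adamts9 was lost. Adamts15 did not pass (F test adjusted p = 0.247, means of 49.9 to 80.8), and Adamts4 and Adamts8 were under the filter, with highest signals of 86.3 and 59.0. Without E16.5 replicate 2 the adjusted p of Adamts1 in E16.5 against E14.5 was 0.0622 and that of Adamts20 in E16.5 against E12.5 was 0.0657, and for Adamts20 it was 0.0787 without E12.5 replicate 2. Adamts9 had adjusted p-values of 0.0793 without E11.5 replicate 1 and 0.13 without E18.5 replicate 2 in E18.5 against E11.5, and its F test p rose to at most 0.142, with the call lost under 5 of 19 alternatives.

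Among the other ADAMTS proteases, 3 of 4 tested genes changed. Adamts16, whose loss in rats goes with undescended testes, had 70.2 and 138.9 (E11.5), 202.9 and 225.9 (E12.5), 139.8 and 135.2 (E14.5), 256.4 and 242.6 (E16.5), 248.9 and 268.2 (E18.5). Its arrays were lower at E14.5 than at the stages on either side, and it was 1.99-fold higher in E12.5 against E11.5 (adjusted p = 0.026), 1.73-fold higher in E16.5 against E14.5 (adjusted p = 0.04) and 2.37-fold higher in E18.5 against E11.5 (adjusted p = 0.00101). The second Adamts16 probe set did not share this course, with its highest mean at E12.5 and later means of 81.7 at E14.5, then 49.8 and 78.6. With the mean of both probe sets the log2 change was 0.54, 0.11 and 0.50 in the same comparisons, the call was lost in each (adjusted p = 0.152, 0.726 and 0.0539), and the F test p was 0.0911. Without E11.5 replicate 1 the log2 change of Adamts16 was 0.57 in E12.5 against E11.5 (adjusted p = 0.161) and 0.82 in E18.5 against E11.5, and leaving out either E12.5 array ended the first of these calls (0.0876 without replicate 1 and 0.173 without replicate 2). The call in E16.5 against E14.5 was lost when any array of E14.5, E16.5 or E18.5 was left out, with adjusted p-values of 0.0524 to 0.19.

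Adamts7, a protease of cartilage oligomeric matrix protein, averaged 49.5 ± 12.3 at E11.5, then 68.0 ± 17.3 at E12.5, 89.0 ± 55.2 in the E14.5 arrays, 159 ± 5.80 at E16.5, and last 126 ± 8.56 at E18.5. It was 2.11-fold higher in E16.5 against E12.5 (adjusted p = 0.0175) and 2.18-fold higher in E18.5 against E11.5 (adjusted p = 0.0129), while its E14.5 arrays were far apart. Adamts10, which acts on fibrillin microfibrils, averaged 194 ± 79.5, 182 ± 10.2, 275 ± 21.1, 272 ± 5.09 and 305 ± 1.77 from E11.5 to E18.5 and was 1.59-fold higher in E18.5 against E11.5 (adjusted p = 0.0341). The Adamts10 change rested on the E11.5 arrays of 137.7 and 250.1: its log2 change was 0.67, and it was 0.27 without E11.5 replicate 1 (adjusted p = 0.348) and 1.06 without E11.5 replicate 2. Its second probe set had a log2 change of -0.17, and with the mean of both it was 0.25 (adjusted p = 0.413). The call was also lost without E18.5 replicate 1 (0.115) or replicate 2 (0.122), and its F test call under 13 of 19 alternatives. For Adamts7, leaving out E12.5 replicate 1 (0.141), E16.5 replicate 1 (0.0828) or E16.5 replicate 2 (0.088) ended the call in E16.5 against E12.5, and leaving out E11.5 replicate 1 (0.103) or E18.5 replicate 2 (0.0748) ended that in E18.5 against E11.5. Adamts12, which also cuts cartilage oligomeric matrix protein, did not pass, with an adjusted p of 0.0587 in the F test and arrays of 143.0 and 156.0 at E18.5 and 106.7 and 102.9 at E11.5.

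**Figure D2:**
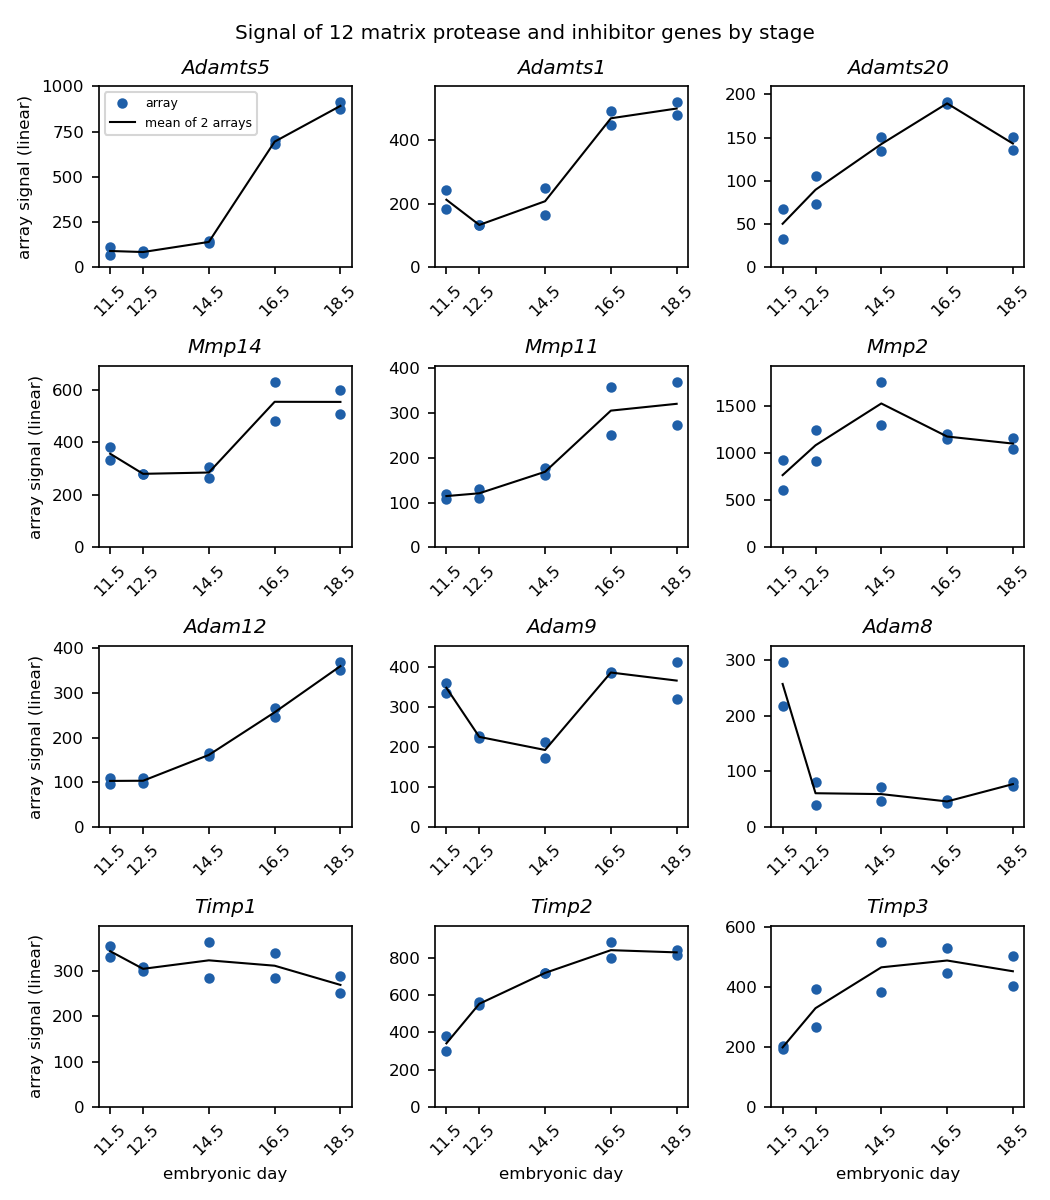
Array signal (linear scale from 0, a scale of its own for each gene) against embryonic day for 12 genes. Dots are single arrays, 2 a stage, and lines join the stage means; Adamts5 and Adamts1 step up between E14.5 and E16.5, Timp2 has its lowest arrays at E11.5, and Adam8 is high at E11.5 alone.

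The untested ADAMTS genes included Adamts6, which is needed for heart development in mice and had 4.5 and 5.0 (E11.5), 13.9 and 5.4 (E12.5), 8.3 and 8.6 (E14.5), 60.3 and 45.3 (E16.5), 84.3 and 46.6 (E18.5). With no filter it passed the F test (adjusted p = 0.00117). Its second probe set had log2 changes of -0.25 in E16.5 against E14.5 and 1.08 in E18.5 against E11.5. The chosen probe set had 1.48 and 1.93. Adamts3, which removes the procollagen propeptide and activates the lymphatic growth factor VEGF-C, stayed between 26.7 and 74.5, and Adamts18 and Adamts19 stayed at or below 22.1 and 49.5. The procollagen proteases Adamts2 and Adamts14 were not analysed here. Of the ADAMTS-like genes, Adamtsl3 was tested, and its mean was 26.8 ± 1.77 at E11.5 and between 52.7 and 61.2 afterwards. Adamtsl3 was 1.60-fold higher in E18.5 against E11.5 (adjusted p = 0.0384), but this call was lost under 12 of 19 alternatives, among them leaving out any array except those of E14.5 (adjusted p = 0.0529 to 0.232), and its F test call under 11 of 18. Adamtsl2, which binds fibrillin and latent TGF-beta binding protein, was under the filter by its mean over all arrays, with 16.6 and 9.3 (E11.5), 10.6 and 9.2 (E12.5), 9.6 and 13.4 (E14.5), 77.1 and 133.2 (E16.5), 141.5 and 137.7 (E18.5). Without the filter, Adamtsl2, Adamtsl1, Adamtsl4, Adamts6, Mmp19 and Timp4 were the 6 of 41 untested genes that passed the F test. In that fit 21 of the 70 genes passed, where 20.9% of all genes did, and 15 of the 18 reported calls were kept.

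Of the membrane-bound MMPs, 1 of 3 tested genes changed. Mmp14, a membrane collagenase that activates pro-MMP2 in a complex with TIMP2, had 381.1 and 332.0 (E11.5), 281.0 and 278.9 (E12.5), 305.4 and 264.5 (E14.5), 480.6 and 628.5 (E16.5), 508.7 and 599.6 (E18.5). The arrays of E16.5 and E18.5 lay above all earlier ones. Mmp14 was 1.88-fold higher in E16.5 against E14.5 (adjusted p = 0.00684), 1.91-fold higher in E16.5 against E12.5 (adjusted p = 0.00202) and 1.53-fold higher in E18.5 against E11.5 (adjusted p = 0.0216). Its 2 other probe sets had log2 changes of 0.65 and 0.76 in E16.5 against E14.5. Without E16.5 replicate 2 the adjusted p in that comparison was 0.132, and in E18.5 against E11.5 it was 0.0838 without E11.5 replicate 2 and 0.155 without E18.5 replicate 2. Mmp23 and the lipid-anchored Mmp17 did not pass (F test adjusted p = 0.0695 and 0.461), and Mmp16 and Mmp24 were under the filter.

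Mmp2, the gelatinase that cuts denatured and basement membrane collagen, changed over the stages (F test adjusted p = 0.0319). Its signals were 606.0 and 924.7 (E11.5), 919.5 and 1243.8 (E12.5), 1302.1 and 1749.0 (E14.5), 1145.2 and 1204.4 (E16.5), 1045.2 and 1154.8 (E18.5). The mean was highest at E14.5 and lowest at E11.5. None of the comparisons of stages that were run passed, and E14.5 against E11.5 was not among them. The F test call was lost under 6 of 19 alternatives, among them leaving out E11.5 replicate 1, E14.5 replicate 2, E16.5 replicate 1, E16.5 replicate 2 or E18.5 replicate 2, with an adjusted p of at most 0.125. Mmp9, the gelatinase of leukocytes and osteoclasts, was under the filter, with signals of 35.8 to 63.7.

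Mmp11, a stromelysin-type enzyme that is activated inside the cell by furin and is found in stroma, had 120.1 and 108.9 (E11.5), 110.6 and 130.9 (E12.5), 176.3 and 161.4 (E14.5), 252.1 and 359.2 (E16.5), 273.0 and 368.8 (E18.5). The arrays at E16.5 and E18.5 all lay above the others. Mmp11 was 1.72-fold higher in E16.5 against E14.5 (adjusted p = 0.0262), 2.33-fold higher in E16.5 against E12.5 (adjusted p = 0.000709) and 2.56-fold higher in E18.5 against E11.5 (adjusted p = 0.000205). The first of these calls was lost without E14.5 replicate 1 (0.106), E14.5 replicate 2 (0.0921) or E16.5 replicate 2 (0.296).

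None of the 9 genes of the chromosome 9 MMP cluster that could be read (in the order Mmp13, Mmp12, Mmp1b, Mmp3, Mmp1a, Mmp10, Mmp8, Mmp20 and Mmp7) passed the filter. They encode the interstitial collagenases, the stromelysins, macrophage elastase, matrilysin and the enamel protease. Signals ran from 0.3 to 11.0 for Mmp13 and from 19.5 to 62.3 for Mmp3. Mmp1a and Mmp1b are close copies, so their signals may be shared.

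In the promoter search, none of the 7 genes with both TATAAA and TGANTCA passed the filter, and all 7 lie in this cluster. On the whole array, 35.2% of the 179 genes with both motifs passed it, against 61.3% of the 14453 genes with a promoter in the table. Counted by gene, GGGCGG was found in 19 of the 41 genes (46.3%) and in 7719 of the 14453 array genes with a promoter. The share was thus not higher among the 41. Counted by promoter and not by gene, it was found in 32.7% of all 32851 promoters. Of the 19 protease and inhibitor genes with GGGCGG, 13 passed the filter, and on the whole array 75.4% of the 7719 genes with this motif passed it. A match describes letters only, and the genes of the cluster share a neighbourhood and an origin, so they are not independent.

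**Figure D3:**
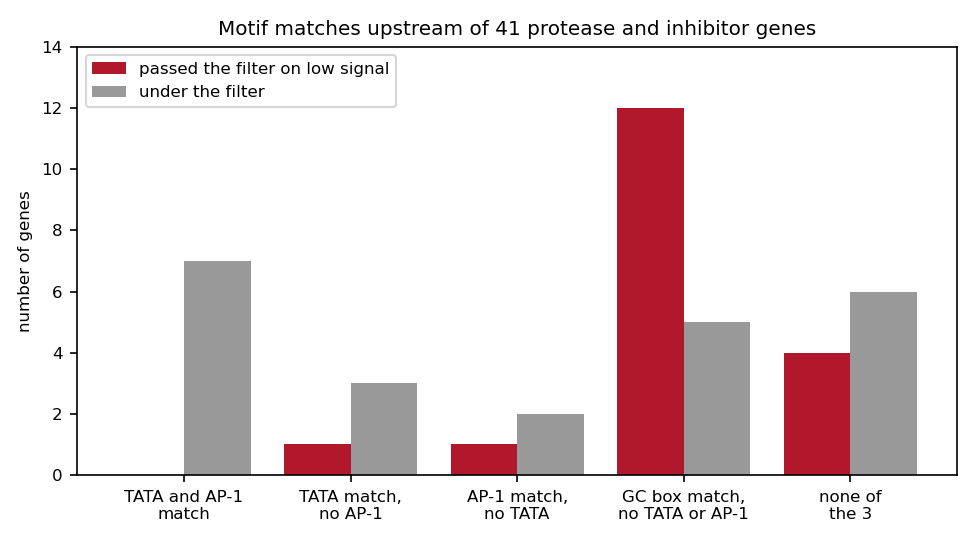
Number of genes (vertical axis, from 0) whose 250 bases before the start hold the named motif matches, split into those that passed the filter on low signal and those under it. The 7 genes with TATA and AP-1 matches were all under the filter, and 12 of 17 genes with GC box matches alone passed it. With or without the other motifs, 13 of 19 genes with a GC box match passed. Counted in the same way, 75.4% of all array genes with a GC box match did.

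Among the somatic ADAMs, 8 of 9 genes were tested and 4 changed, in different directions. Adam12, a protease of insulin-like growth factor binding proteins known from muscle and mesenchyme, had 96.2 and 110.8 (E11.5), 109.1 and 98.7 (E12.5), 158.3 and 165.0 (E14.5), 246.7 and 267.4 (E16.5), 351.9 and 368.9 (E18.5). From E14.5 on, the arrays of each stage lay above those of the stage before. Adam12 was 2.28-fold higher in E16.5 against E12.5 (adjusted p = 0.000146) and 3.15-fold higher in E18.5 against E11.5 (adjusted p = 3.71e-06). It was also 1.54-fold higher in E16.5 against E14.5 (adjusted p = 0.0262), a call that was lost when any of those 4 arrays was left out: without E14.5 replicate 1 (0.137) or 2 (0.0577), and without E16.5 replicate 1 (0.0865) or 2 (0.215). With the mean of its probe sets the log2 change there was 0.40 in place of 0.62.

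Adam9, a sheddase found in many tissues, had 361.7 and 336.4 (E11.5), 228.9 and 223.4 (E12.5), 172.7 and 214.0 (E14.5), 386.9 and 387.8 (E16.5), 321.4 and 412.9 (E18.5). The E12.5 and E14.5 arrays were the lowest. Adam9 was 1.94-fold higher in E16.5 against E14.5 (adjusted p = 0.00471) and 1.67-fold higher in E16.5 against E12.5 (adjusted p = 0.00729), while E18.5 against E11.5 gave a log2 change of 0.06. Without E16.5 replicate 2 the adjusted p was 0.0622 and 0.0575 in these calls, and without E14.5 replicate 1 it was 0.0591 in the first.

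Adam8, a protease best known from leukocytes, had 296.0 and 218.3 (E11.5), 81.4 and 40.5 (E12.5), 71.5 and 47.3 (E14.5), 48.2 and 44.2 (E16.5), 81.1 and 73.5 (E18.5). Both E11.5 arrays lay above all others. Adam8 was 3.64-fold lower in E12.5 against E11.5 (adjusted p = 0.00114) and 2.90-fold lower in E18.5 against E11.5 (adjusted p = 0.000728). Of 8 macrophage and leukocyte markers, 3 were tested and none passed in E12.5 against E11.5. These 3, Csf1r, Adgre1 and Cd68, all had lower means at E12.5, with log2 changes of -0.57, -0.41 and -0.32. The summed signal of the list was 432 to 434 at E12.5 and 629 to 684 at E11.5. Ptprc and Itgam, the leukocyte markers that define the list, were under the filter. The part of such cells in the Adam8 signal was not tested.

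Adam19, which sheds neuregulin, had 217.8 and 252.6 (E11.5), 264.4 and 239.0 (E12.5), 185.1 and 188.8 (E14.5), 154.6 and 147.1 (E16.5), 148.0 and 143.4 (E18.5). It was 1.60-fold lower in E16.5 against E12.5 (adjusted p = 0.00685) and 1.55-fold lower in E18.5 against E11.5 (adjusted p = 0.00926). The first call was lost without E12.5 replicate 1 (0.0697) or E16.5 replicate 2 (0.0663), and the second without E18.5 replicate 2 (0.0582). Adam10 and Adam17, the main sheddases of Notch and of tumour necrosis factor, did not pass (F test adjusted p = 0.189 and 0.16), and neither did Adam15 and Adam33. Adam10 averaged 1531 ± 393, 1668 ± 449, 1038 ± 245, 1438 ± 245 and 1501 ± 157 from E11.5 to E18.5. Its 3 other probe sets had lower means in E16.5 than in E12.5, with log2 changes of -1.37 to -0.83.

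Of the adhesion ADAMs of the nervous system, which bind LGI proteins at synapses, Adam23 changed and Adam22 did not pass. Adam23 had 19.7 and 45.1 (E11.5), 40.9 and 51.4 (E12.5), 109.4 and 121.7 (E14.5), 171 ± 41.4 as the mean of E16.5, 166.9 and 160.5 (E18.5). All arrays from E14.5 on lay above all earlier ones. Adam23 was 2.12-fold higher in E14.5 against E12.5 (adjusted p = 0.0253), 2.98-fold higher in E16.5 against E12.5 (adjusted p = 0.000564) and 3.85-fold higher in E18.5 against E11.5 (adjusted p = 6.45e-05). The first call was lost when any of its 4 arrays was left out: without E12.5 replicate 1 (0.208) or 2 (0.0523), and without E14.5 replicate 1 (0.114) or 2 (0.0792). Of its other probe sets, 1 had log2 changes of 0.47 in E18.5 against E11.5 and 0.84 in E16.5 against E12.5 with no stage mean above 17.2, and the other had -0.03 and -0.33. With a pseudocount of 64 in place of 16 the change of the main probe set was 1.25 in place of 1.94 in E18.5 against E11.5 and was still called. Among 16 ADAMs of sperm and the male tract, which serve egg binding and sperm migration in the adult, only Adam4 passed the filter, and it did not pass the F test (adjusted p = 0.555). The 15 others, among them the fertilin subunit genes Adam1b and Adam2, had highest signals of 6.5 to 70.3. Adam6a and Adam6b are close copies whose signals may be shared.

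Of the inhibitors, Timp2 and Timp3 changed and Timp1 did not pass. Timp2, which inhibits MMPs and takes part in pro-MMP2 activation, had 381.4 and 301.1 (E11.5), 561.5 and 544.3 (E12.5), 718.6 and 717.9 (E14.5), 797.5 and 882.5 (E16.5), 813.6 and 842.8 (E18.5). The arrays of each stage up to E16.5 lay above those of the stage before, and those of E16.5 and E18.5 overlapped. Timp2 was 1.60-fold higher in E12.5 against E11.5 (adjusted p = 0.0381), higher by 0.59 ± 0.17 (SE) on the log2 scale in E16.5 against E12.5 (adjusted p = 0.0179) and 2.38-fold higher in E18.5 against E11.5 (adjusted p = 7.49e-05). The first call was lost under 12 of 21 alternatives, among them leaving out any array except E11.5 replicate 1 (adjusted p = 0.0503 to 0.208). The second was lost without E12.5 replicate 1 (0.0824) or 2 (0.0828) and without E16.5 replicate 1 (0.0515) or 2 (0.15). The 5 other Timp2 probe sets had lower means in E16.5 than in E14.5, and averaged over all probe sets the log2 change in E16.5 against E12.5 was -0.04 (adjusted p = 0.885), in E12.5 against E11.5 it was 0.28, and in E18.5 against E11.5 it was 0.67.

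Timp3, which is bound to the matrix and also inhibits ADAM17 and the aggrecanases, had 194.5 and 204.0 (E11.5), 266.4 and 393.5 (E12.5), 382.5 and 549.9 (E14.5), 445.9 and 532.0 (E16.5), 403.1 and 503.1 (E18.5). Only the E11.5 arrays lay apart from all others. Timp3 was 2.17-fold higher in E18.5 against E11.5 (adjusted p = 0.00191), and averaged over its 4 probe sets the log2 change was 0.74 in place of 1.12 (adjusted p = 0.0538) and the F test p was 0.142. Timp1, the X-linked inhibitor, averaged 344 ± 17.5, 305 ± 6.15, 324 ± 56.4, 312 ± 38.5 and 269 ± 26.4 from E11.5 to E18.5 (F test adjusted p = 0.539). Timp4 was under the filter, with signals of 5.5 to 43.9.

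Calls among the 29 tested genes differed in number between the comparisons of stages. In E12.5 against E11.5, 2 rose (Adamts16 and Timp2) and 1 fell (Adam8), where 1.95% and 1.32% of all tested genes were called higher and lower, and 1 was called without E12.5 replicate 1 or E12.5 replicate 2. In E14.5 against E12.5, 1 rose (Adam23) and none fell, against 3.53% and 1.73%. With the replicate number or the fluidics module as a block, 3 rose and 1 fell in this comparison. None was called without E12.5 replicate 1, E12.5 replicate 2 or E14.5 replicate 1, and 5 were called without either E11.5 array. In E16.5 against E14.5, 7 rose (Adamts5, Adamts1, Mmp14, Adam9, Adam12, Mmp11 and Adamts16) and none fell, against 7.7% and 3.12%. Without E16.5 replicate 2 this count was 1, and without E14.5 replicate 1 it was 3. In E18.5 against E16.5 none was called in limma, against 0.00916% in each direction, and Adam12 and Adam8, 2 genes of the 29, had an unadjusted p under 0.05, as had 538 of all tested genes.

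Across the longer spans, 10 rose and 1 fell (Adam19) in E16.5 against E12.5, where 16.8% and 10.2% of all tested genes were called, and 6 were called in all without E16.5 replicate 2. In E18.5 against E11.5, 14 rose and 2 fell (Adam8 and Adam19), against 17.1% and 11%, and 10 were called in all without E18.5 replicate 2. The median log2 change of the 29 genes was 0.61 in E18.5 against E11.5 and 0.50 in E16.5 against E12.5, and over all tested genes it was 0.02 and 0.06. Of the 29, 23 had a change above 0 in E18.5 against E11.5 (79.3%, with 51.4% of all tested genes). The largest step between neighbouring stages was E16.5 against E14.5 for 8 of the 18 changed genes (44.4%, with 43.7% of all changed genes) and E12.5 against E11.5 for 7 (38.9%, with 18.3%). A largest step need not be a called one. Adamts20, Adamtsl3, Mmp2 and Timp3 were not called in E12.5 against E11.5, nor Adamts7 and Adamts9 in E16.5 against E14.5. For Mmp2 the log2 change was 0.505 in E12.5 against E11.5 and 0.491 in E14.5 against E12.5, which is close to a tie.

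**Figure D4:**
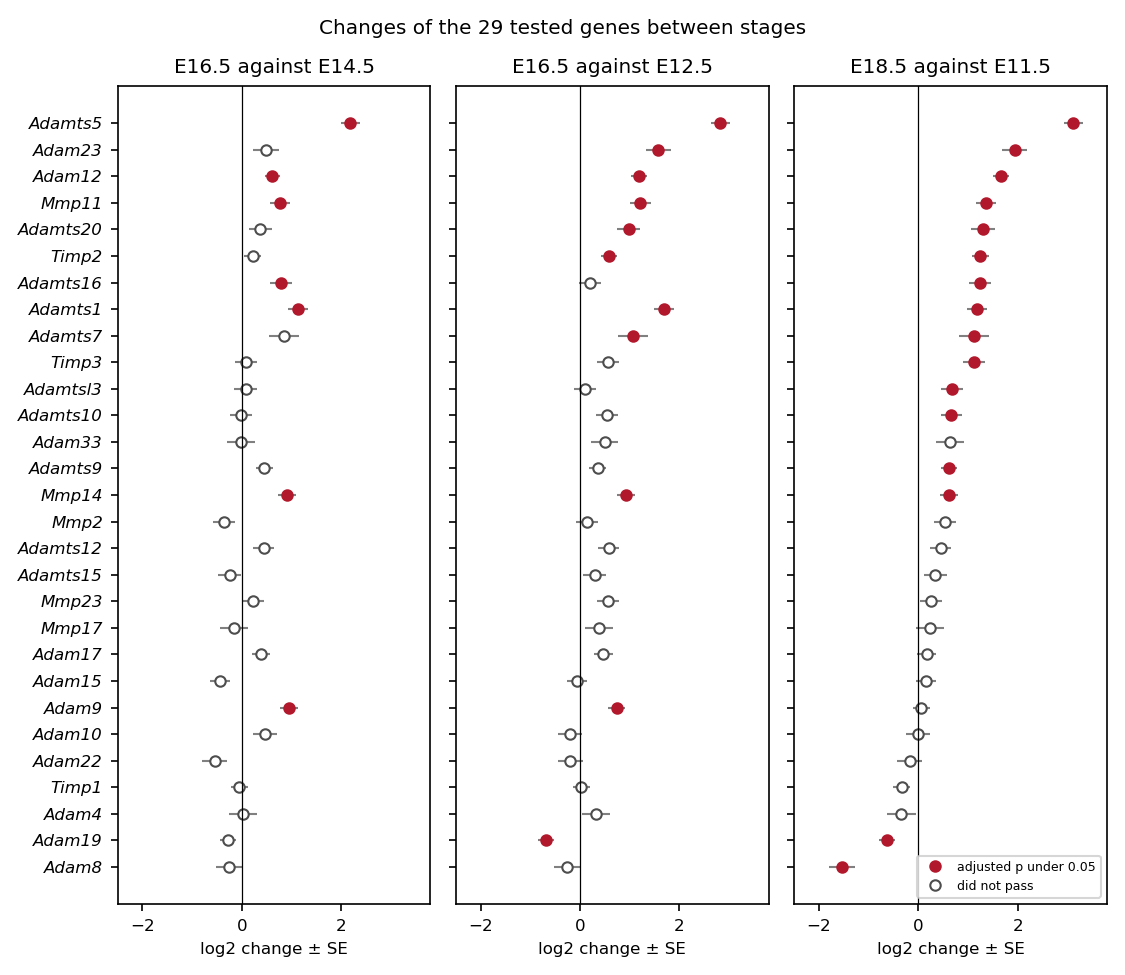
Log2 change with its SE (horizontal axis) for the 29 tested genes in E16.5 against E14.5, E16.5 against E12.5 and E18.5 against E11.5, in the order of the last. Filled red dots passed an adjusted p of 0.05 (7, 11 and 16 genes), and open dots did not; Adamts5 has the largest change in each panel, and Adam8 the lowest in E18.5 against E11.5.

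Each array averages over all cells of a testis, so fewer cells of a type and less RNA per cell cannot be told apart. Several marker lists moved over the same stages as the ADAMTS, MMP and TIMP genes. Of 7 interstitial stroma markers, all tested, 5 changed, and their summed signal was 7666 to 7948 at E11.5, 9836 to 11715 at E12.5, 14167 to 16041 at E14.5, 17127 to 17605 at E16.5 and 18364 to 19068 at E18.5. Of 6 peritubular smooth muscle markers, 3 were tested and changed, with a sum of 5688 to 5720 at E18.5 and 624.5 to 695.6 at E11.5, while Cnn1, Des and Actg2 were under the filter. Of 8 neutrophil markers, 3 were tested and rose in E16.5 against E14.5, with a sum of 1463 to 2001 at E16.5 and 623.9 to 781.0 at E14.5, and the granule genes Mpo, Elane, Camp, Ltf and Lcn2 were under the filter. Of 5 mesothelial markers, 4 were tested and all 4 fell in E16.5 against E14.5, with a sum of 423.9 to 467.9 at E16.5 and 1308 to 1384 at E14.5. The sum of 5 red cell markers, all tested and changed, was 272.3 to 407.3 at E18.5 and 24146 to 27937 at E11.5, and 964.2 to 1051 at E16.5 and 20695 to 22574 at E12.5. At E11.5 and E12.5 most of this sum came from the embryonic globin genes Hbb-bh1, Hba-x and Hbb-y, so it does not measure red cell number. In E16.5 against E12.5, 3 of the 5 markers fell, and Alas2 rose (means of 584 at E16.5 and 183 at E12.5, adjusted p = 5.47e-05). The sum of 7 germ cell markers, of which 6 were tested and changed, was lowest at E11.5 with 1307 to 1375 and highest at E14.5 with 4729 to 5684, and was 3010 to 3496 at E18.5. The Sertoli cell markers summed to 10456 to 14041 at E18.5 and 1239.6 to 1362.5 at E11.5, and the fetal Leydig cell markers to 9370 to 10897 at E18.5 and 253.0 to 272.6 at E11.5. Of 7 endothelial markers, 6 were tested and 3 changed, with Cdh5 higher and Emcn lower in E18.5 against E11.5, and of 5 mesonephric duct markers 1 was tested and did not pass. Skeletal muscle markers were highest at E14.5, with a sum of 640.5 to 663.9 against 182.9 to 344.9 at the other stages, and Myod1 and Myog were under the filter. The part of these cells in the protease and inhibitor signals was not tested.

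Genes for substrates and partners of these enzymes were counted by list, where 34.7% of all tested genes changed over the 5 stages. Of 5 tested hyalectan and link protein genes, Bcan, Vcan, Hapln1 and Hapln3 changed in the F test. The hyalectans among them are the targets named for the ADAMTS group above, and Hapln1 and Hapln3 are link proteins. In E18.5 against E11.5, Bcan, Vcan and Acan rose and Hapln1 fell, while Acan did not pass the F test (adjusted p = 0.0834) and Hapln3 did not pass this comparison (adjusted p = 0.314). Brevican (Bcan) averaged 564 at E18.5 and 26.2 at E11.5, versican (Vcan) 665 at E18.5 and 331 at E11.5, and the link protein Hapln1 56.0 at E18.5 and 293 at E11.5. Of 5 tested genes for fibrillins, latent TGF-beta binding proteins and ADAMTS-like relatives, Fbn2, Ltbp1, Ltbp3 and Ltbp4 changed. The ADAMTS-like relative Thsd4 did not pass (F test adjusted p = 0.0734). Ltbp4 and Ltbp3 were higher and Ltbp1 lower in E18.5 against E11.5 (log2 changes of 3.70, 2.10 and -1.11). All 6 tested cysteine cathepsins, the lysosomal proteases, changed, and 4 rose and none fell in E18.5 against E11.5. Cathepsin L (Ctsl), which Sertoli cells secrete in the adult rat, averaged 5002 at E18.5 and 1091 at E11.5.

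Receptors and other related genes gave smaller counts, in lists of 2 to 5 tested genes that stand beside the same 34.7% of all tested genes. Of 5 tested clearance and docking receptors, 2 changed, both higher in E18.5 against E11.5: Lrp1, which takes up MMPs, ADAMTS5 and TIMP3 from outside the cell, averaged 729 at E18.5 and 239 at E11.5, and the hyaluronan receptor Cd44 162 at E18.5 and 30.6 at E11.5. Of 2 tested genes outside the TIMP family that were listed by their link to metalloprotease inhibition, the proteoglycan Spock2 rose. The membrane-anchored inhibitor Reck did not pass (F test adjusted p = 0.335). Spock2 itself is not taken to be an inhibitor here. Spock2 averaged 438 at E18.5 and 54.2 at E11.5. Of 2 tested genes of the plasminogen system, which activates several pro-MMPs, Plat, the tissue activator, was lower in E18.5 against E11.5 (means of 143 at E18.5 and 708 at E11.5, adjusted p = 2.88e-07). Among 4 proprotein convertases, which cut the propeptides of MMP11, MMP14, ADAMs and ADAMTS proteases, Furin alone changed (F test adjusted p = 0.0404). Of 3 tested tolloid and meprin genes, Pcolce, an enhancer of procollagen processing, changed and rose in E18.5 against E11.5 (log2 change 1.08). Of 5 tested partners of ADAM17 and ADAM10, Frmd8 and Tspan15 changed. Neither of the 2 genes for the sugar transfer to thrombospondin repeats, Pofut2 and B3glct, which ADAMTS secretion needs, passed.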

How the data were processed

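The deposited table, per the file headers, holds 1 linear intensity per probe set and array. Labels name Trizol extraction and single-cycle biotin labelling. Neither labels nor headers name the authors' software or scaling, and the trimmed mean intensity was 125 on every array. Per the file headers, a settings file per array records scanning and fluidics, and gave the scanning day and module.

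Symbols came from the platform annotation, updated through a RefSeq table of GRCm38.p6: 34958 of 45101 probe sets had 1 symbol, 932 several and 9211 none. Values were analysed as log2(signal + 16) in limma 3.58.1 (R 4.3.3) with lmFit and eBayes with a variance trend (5 residual and 8.59 prior degrees of freedom), all 10 arrays in one model with stage, two-sided, Benjamini-Hochberg adjustment over 10916 genes, threshold 0.05. The procedure was tested on simulated data. Genes named are those called, the highest member of a role without calls, and up to 4 of each related list by F test p; others named from those lists, and the sequences shown, were chosen after their values were seen. The genes and lists were chosen with earlier results of these data known. Same-numbered arrays of different stages had correlations of deviations of 0.00444 to 0.366, over 0.1 in 6 of 10 pairs of stages, and the number went with the fluidics module. Since 4 were below 0.1, the numbers were not treated as pairs, and fits with either as a block are given as alternatives. The number of arrays limits the precision.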

Additional observations from a re-analysis of the deposited data

How the results depend on the processing

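Over 21 settings besides the one reported, 125 of 142 counts of called protease and inhibitor genes stayed within 1.5 times the reported count. Over the 5 stages the count was 18 and ranged from 14 to 18 when 1 array was left out. In E12.5 against E11.5 it was 3, and it was 1 with only the stages compared in the model and 1 to 3 with 1 array left out. In E14.5 against E12.5 it was 1, and it was 0 with no filter, with the filter at the 60th percentile and with quantile normalization, 4 with the replicate block, 4 with the fluidics module block, and 0 to 5 with 1 array left out. Leaving out 1 array gave 1 to 7 in E16.5 against E14.5 (reported 7), 6 to 12 in E16.5 against E12.5 (reported 11) and 10 to 17 in E18.5 against E11.5 (reported 16). Timp2 in E16.5 against E12.5 had a log2 change of -0.038 with the mean of probe sets; its probe sets disagree, and the cause was not tested. Of 38 called comparisons of single genes, 16 kept their call in every setting run, as did 11 of 18 F test calls. Besides the counts above, the replicate block moved no count by over 1.5 times (20 over the 5 stages, 4 in E12.5 against E11.5, 10 in E16.5 against E14.5, 13 in E16.5 against E12.5 and 17 in E18.5 against E11.5). Counts over all tested genes moved too: E12.5 against E11.5 had 357 (148 without E12.5 replicate 2, 566 with the module block), E14.5 against E12.5 574 (183 without E12.5 replicate 1, 1003 with the module block), E16.5 against E14.5 1181 (168 without E16.5 replicate 2, 1783 with the replicate block), E16.5 against E12.5 2954 (1204 without E16.5 replicate 2), E18.5 against E11.5 3076 (1943 without E18.5 replicate 2) and E18.5 against E16.5 2 (0 with no filter, 16 with the module block). Scanning day as a random block was not run, since each stage lies within 1 day. With 2 arrays a stage, a gene that missed the threshold is not shown to be stable.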
